A study of Mus musculus with 10 samples.

Results

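The Flt3-ITD allele was followed across Npm1 backgrounds by setting the 4 ATAC-seq libraries that carry it against the 4 that do not. All 8 libraries were made from lineage-negative bone marrow cells of C57BL/6 mice, the fraction that holds haematopoietic stem and progenitor cells (HSPCs), with 100000 cells and 30 min of tagmentation per library. The libraries with the allele are 2 from Flt3ITD/+ mice (Flt3-ITD) and 2 from Npm1flox-cA/+;Flt3ITD/+;Mx1-Cre+ mice (the double mutant, DM). The libraries without it are 2 from wild-type mice (WT) and 2 from Npm1flox-cA/+;Mx1-Cre+ mice (Npm1c). Mx1-Cre is a Cre recombinase under an interferon-inducible promoter, and it is named only for the Npm1c and DM genotypes. It therefore goes with the Npm1c allele and is balanced over the comparison, being in 2 of the 4 libraries on each side. No age, sex or number of pooled animals is given in the sources used here. The design text calls the replicates biological without naming animals, so every p-value below measures the spread between these 8 samples. Merging all peaks of the 8 lists that overlap by at least 1 bp gave 103446 regions on chromosomes 1 to 19 and X. Of these, 585 (0.566%) had a peak in each of the 4 carriers of the allele and no peak in the other 4, and are termed "only with" here. In the opposite pattern were 8665 regions (8.38%), termed "only without", and 26169 regions were called in all 8 libraries.

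FLT3 is a receptor tyrosine kinase of early haematopoietic progenitors, and its ligand is required for dendritic cell development. An internal tandem duplication (ITD) in its juxtamembrane part lets the receptor signal without ligand, mainly through STAT5, RAS-MAPK and PI3K-AKT. In acute myeloid leukaemia the ITD often occurs together with NPM1c, a frameshift that moves nucleophosmin from the nucleolus to the cytoplasm. ATAC-seq marks open chromatin by the insertion of sequencing adapters by the Tn5 transposase. The deposited lists give the position of each peak and no height, so a peak is present or absent and its width is the one graded value.

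Few of the only-with and only-without regions lay at promoters, and the sequences below show the 3 of each kind that ranked highest in width among those that did. Here and below, regions are ranked by the percentile of their widest peak among all peaks of a library, averaged over the libraries that called them, not by length in bp. For each, the 250 bases before the start site are given 5′ to 3′ on the strand of the gene, from RefSeq on the GRCm38.p6 assembly (the build of the peak lists, mm10). Capitals mark a match to a motif named after the sequences. The first 3 were only with, the last 3 only without.
C1qb: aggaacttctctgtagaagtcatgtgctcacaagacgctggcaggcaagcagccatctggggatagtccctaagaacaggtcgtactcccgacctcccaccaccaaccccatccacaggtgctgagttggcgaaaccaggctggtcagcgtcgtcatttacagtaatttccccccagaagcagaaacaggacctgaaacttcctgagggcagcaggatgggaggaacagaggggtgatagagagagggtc
Glp1r: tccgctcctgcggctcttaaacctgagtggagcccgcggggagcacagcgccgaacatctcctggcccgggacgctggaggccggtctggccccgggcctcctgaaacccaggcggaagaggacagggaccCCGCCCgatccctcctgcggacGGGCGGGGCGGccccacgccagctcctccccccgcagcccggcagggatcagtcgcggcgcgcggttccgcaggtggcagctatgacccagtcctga
Scn4b: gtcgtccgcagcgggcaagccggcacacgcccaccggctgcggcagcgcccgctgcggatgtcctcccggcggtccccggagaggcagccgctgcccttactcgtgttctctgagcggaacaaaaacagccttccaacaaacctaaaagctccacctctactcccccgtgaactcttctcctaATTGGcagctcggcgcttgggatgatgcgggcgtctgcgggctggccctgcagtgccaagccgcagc
B3galt2: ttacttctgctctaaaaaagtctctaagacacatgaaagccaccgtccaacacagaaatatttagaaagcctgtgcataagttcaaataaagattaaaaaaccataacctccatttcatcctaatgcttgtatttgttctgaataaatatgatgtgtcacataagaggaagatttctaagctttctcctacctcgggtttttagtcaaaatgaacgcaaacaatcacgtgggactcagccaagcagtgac
Ifi44l: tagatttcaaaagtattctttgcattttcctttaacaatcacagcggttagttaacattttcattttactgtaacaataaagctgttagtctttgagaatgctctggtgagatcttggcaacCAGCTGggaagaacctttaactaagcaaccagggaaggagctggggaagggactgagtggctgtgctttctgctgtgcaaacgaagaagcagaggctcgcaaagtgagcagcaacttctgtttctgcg
Scin: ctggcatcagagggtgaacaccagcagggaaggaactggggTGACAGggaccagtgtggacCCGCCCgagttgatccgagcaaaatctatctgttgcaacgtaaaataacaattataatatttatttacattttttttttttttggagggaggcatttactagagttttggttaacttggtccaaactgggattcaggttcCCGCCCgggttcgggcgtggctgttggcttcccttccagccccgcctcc
C1qb encodes a chain of complement C1q made by macrophages, and the stretch shown is chr4:136886201-136886450, minus strand. Its region covered 301 and 379 bases in the Flt3-ITD libraries and 521 and 536 bases in the DM libraries, and no base in the other 4. No motif of the 14 searched matched it. Glp1r encodes the receptor for glucagon-like peptide 1, and its stretch at chr17:30901617-30901866 holds the GC box GGGCGG bound by SP and KLF factors. The region covered 342 and 371 bases in Flt3-ITD and 383 and 499 bases in DM. Scn4b, a sodium channel beta subunit, has a CCAAT box of NF-Y at chr9:45138374-45138623, under a region of 307 and 257 bases in Flt3-ITD and 396 and 520 bases in DM. These 3 regions were wider in both DM libraries than in both Flt3-ITD libraries. On the other side, the promoter region of B3galt2, a galactosyltransferase gene, covered 839 and 1081 bases in WT and 1275 and 1316 bases in Npm1c. Its stretch, chr1:143640447-143640696, has 36.8% GC and no motif match. Ifi44l, an interferon-induced gene, has the E-box CAGCTG at chr3:151762892-151763141, minus strand, under 924, 1075, 1105 and 1168 bases in the 4 libraries without the allele. Scin encodes scinderin, an actin-severing protein, and its stretch at chr12:40134229-40134478, minus strand, holds GC boxes and the MEIS motif TGACAG. Its region, which reaches only the end of that stretch next to the start site, covered 1156, 1008, 873 and 1119 bases in the libraries without the allele.

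Before single loci, the lists themselves differed in size. Libraries with Flt3-ITD listed 43825 to 63133 peaks and those without it 62782 to 80916, which gave means of 53579 ± 8042 and 69070 ± 8300 (SD, n = 4 each; two-sided exact permutation p = 0.0571). Peaks of the carriers spanned 29.5 ± 3.98 Mb, those of the other libraries 43.2 ± 4.96 Mb, with no overlap between the sides (exact permutation p = 0.0286, the smallest that 4 against 4 allows; 0.0429 adjusted over the 3 library measures). In regions called in all 8, a library's median was 630.0 ± 48.6 bases with the allele and 774.5 ± 83.7 bases without it (exact permutation p = 0.0286, adjusted 0.0429). These medians did not overlap between the sides (561 to 675 bases with the allele, 701 to 894 without it), also with any 1 library left out. The exact permutation p for width rose to 0.0571, and its call was lost, without WT replicate 1 (-104.7 bases), Flt3-ITD replicate 1 (-121.5) or 2 (-148.2), or DM replicate 1 (-148.8) or 2 (-159.5). With so few relabellings, p moves only in coarse steps. The call for peaks was gained without DM replicate 2 (-18676, exact permutation p = 0.0286). The sources used here give no read depth. Fewer reads, fewer cells of a type and less open chromatin per cell cannot be told apart.

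**Figure D1:**
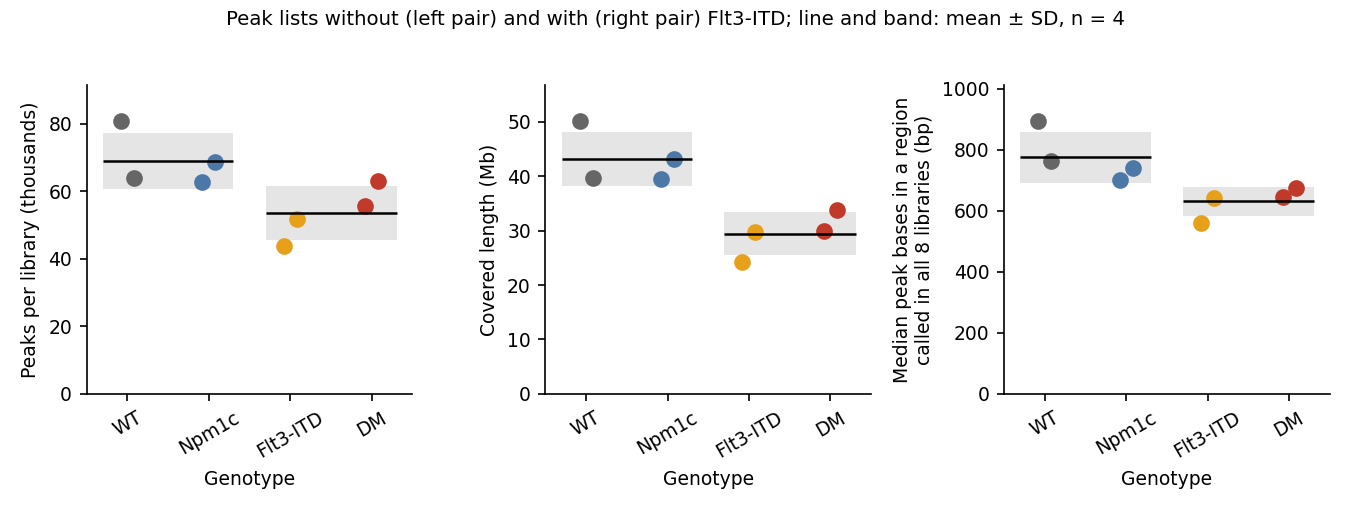
Peaks listed, covered length in Mb and median covered bases of the regions called in all 8, one point per library with the mean and SD (n = 4) of each side. The covered length of every library with Flt3-ITD (24.2 to 33.9 Mb) lies under that of every library without it (39.6 to 50.2 Mb).

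The imbalance between 585 and 8665 regions moved with these list lengths. When each list was cut to its widest peaks, to the length of the shortest, 2895 regions were only with and 2822 only without. Of the 585, 314 (53.7%) kept their pattern in the equal lists, and of the 8665, 1865 (21.5%) did, with none in the opposite pattern. WT replicate 1 has the longest list, and without it 2510 regions were only with. Without Flt3-ITD replicate 1, which has the shortest, 1011 were. Just outside the rule lay 744 regions called in 3 of 4 with and 0 without, 1952 in 4 with and 1 without, 4335 in 0 with and 3 without, and 4498 in 1 with and 4 without. A Fisher exact test of 1 region over 4 against 4 libraries reaches p = 0.0286 at best, or 0.320 after adjustment over all regions, so no single region passed.

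Irf8, the transcription factor gene that directs monocyte and dendritic cell development, held the densest group of only-with regions. It was the one place where 4 of them followed each other with at most 20 kb between midpoints, in 20729 bp at chr8:120757034-120777762. Their midpoints lie 21070, 27094, 32477 and 41052 bp past the Irf8 start, downstream of the gene body, which ends at 120756694. The nearest, chr8:120757034-120757822, covered 296 and 218 bases in Flt3-ITD and 659 and 772 bases in DM. The farthest, chr8:120777058-120777762, covered 475 and 460 bases in Flt3-ITD and 519 and 705 bases in DM. All 4 were wider in each DM library than in each Flt3-ITD library. The Irf8 promoter region, chr8:120735802-120736940, was called in all 8 libraries, with 903 and 587 bases in WT, 517 and 505 bases in Npm1c, 745 and 798 bases in Flt3-ITD and 981 and 1128 bases in DM.

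**Figure D2:**
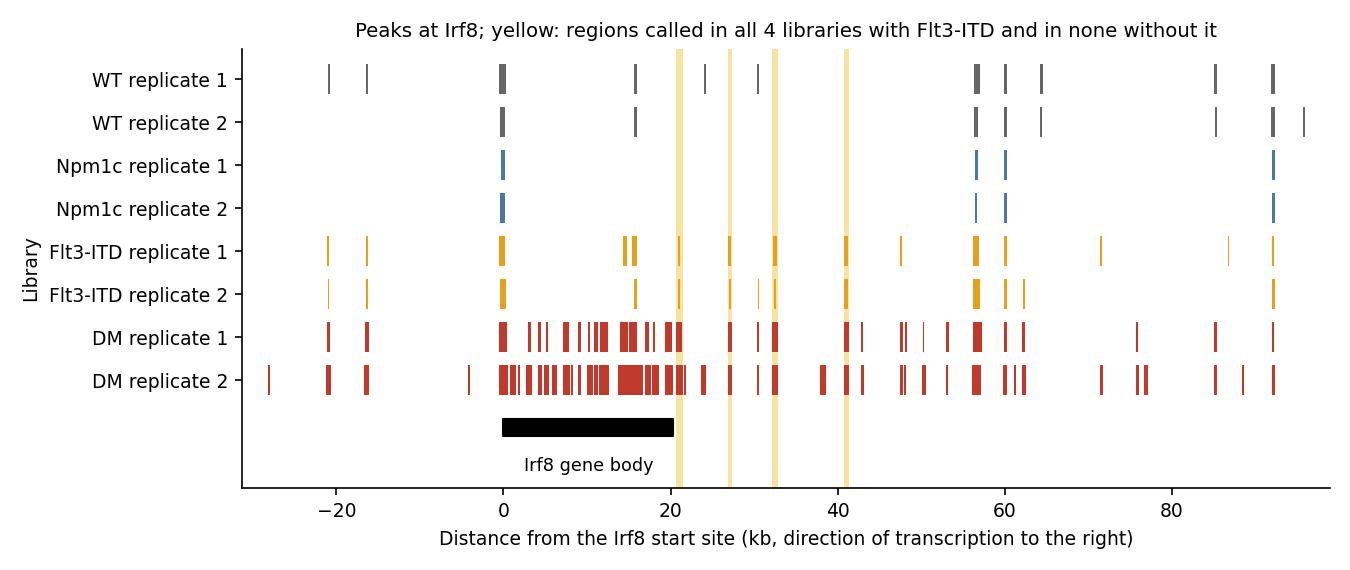
Peaks of each of the 8 libraries plotted by distance from the Irf8 start site, with the 4 only-with regions shaded. The shaded regions hold peaks in the 4 lower rows, the libraries with Flt3-ITD, and none in the 4 without it.

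The rule by number of only-with regions named 9 other genes. Grm4, a metabotropic glutamate receptor, and Srcin1, an adaptor that inhibits SRC, had 4 each. Glp1r, the LDL-receptor chaperone Lrpap1, the actin adaptor Baiap2, the GTPase-activating protein Arhgap39, the xylosyltransferase Xxylt1 and the Groucho-type corepressor Tle3 had 3 each, and Btbd2 had 2. The only-with region highest in width percentile (87.1), chr17:27374974-27376247, lies 46776 bp from Grm4 and covered 651 and 1186 bases in Flt3-ITD and 1119 and 1125 bases in DM. Next in percentile (82.6 to 76.8) were regions at Lrpap1 (chr5:35165404-35166765), which is longer at 1362 bp against 1274 bp, inside Acox3 (chr5:35609195-35610363), at Dlx3 (chr11:95124898-95125964) and upstream of Glp1r (chr17:30889739-30890551). Over all 585, the median was 263 and 267 bases in the Flt3-ITD libraries and 387 and 460 bases in the DM libraries.

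The only-without regions formed 126 such groups of 4 or more. St6galnac3, a sialyltransferase gene, had 15 of them, and Sox5 and Zeb2, transcription factor genes, had 14 each. The cAMP phosphodiesterase Pde4d, the ARF exchange factor Psd3 and the transcription factor Nfia had 13 each, and Fry had 12. The lymphoid and stem cell transcription factor Ikzf2 (Helios), the anchoring protein Akap13 and the phospholipase Plcb4 had 11 each. Within Zeb2, 7 lay in 41749 bp at chr2:45036754-45078502. That group holds the only-without region highest in width percentile (93.5), chr2:45054007-45056510, with 1967 and 2009 bases in WT, 2023 and 2454 bases in Npm1c and no peak in the other 4. Next in percentile were regions in Uap1 (chr1:170147581-170149523), at the water channel gene Aqp1 (chr6:55347543-55349613), in Foxn3 (chr12:99406190-99407908) and in Aff1 (chr5:103769588-103771224). The median only-without region covered 362 and 343 bases in WT and 363 and 388 bases in Npm1c.

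To compare genes on a graded scale, the covered bases of all regions of a gene were summed per library. A region went to the gene that holds its midpoint or else to the nearest gene end within 100 kb. The kilobases (kb) printed are these sums. The changes are log2 differences, with and without the allele, of the sums plus 200 bases after each library was scaled to the same total covered length. They were tested with limma for the Flt3-ITD term beside an Npm1c term, with p adjusted (Benjamini-Hochberg) over all 10826 genes with at least 3 regions. With the allele, 2462 genes (22.7%) had more covered bases and 2640 (24.4%) fewer. Without scaling, the split was 225 (2.08%) more and 5314 (49.1%) fewer, with a median change over all genes of -0.51 in place of -0.02, so the changes below are relative to a library's total. With lists of equal length, 2157 (25.2%) of 8566 genes had more and 1992 (23.3%) fewer. Without Npm1c replicate 1, Npm1c replicate 2 or DM replicate 1, 1601, 1424 or 1471 genes had more, and without Npm1c replicate 2, 1699 had fewer. Genes with only-with or only-without regions, here and below, have those regions within their sums. For genes named for such regions or for the size of their change, the change and any p printed with it are a description.

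Irf8 held 4.69 and 2.845 kb in WT, 1.40 and 1.42 kb in Npm1c, 5.67 and 5.01 kb in Flt3-ITD, and 15.3 and 25.6 kb in DM. Every library with the allele lay above every one without it, by 2.60 ± 0.54 (log2, SE). Grm4 ran from 0.623 to 4.22 kb without and from 5.39 to 9.07 kb with the allele, a difference of 2.48. Glp1r was listed at 0 in the 4 libraries without Flt3-ITD and held 1.49, 1.85, 1.41 and 1.89 kb in the 4 with it. Zeb2 held 25.5 and 21.7 kb in WT, 27.7 and 29.1 kb in Npm1c, 5.93 and 7.70 kb in Flt3-ITD and 5.85 and 6.13 kb in DM. The libraries with the allele stood apart below the others, by 1.44 ± 0.17 on the log2 scale after scaling. Ikzf2 held 14.5 to 24.7 kb without and 2.31 to 3.53 kb with the allele (log2 change -2.08). Among the rest, Srcin1, Lrpap1, Baiap2, Arhgap39, Xxylt1, Tle3 and Btbd2 differed by 1.05 to 2.17, and St6galnac3, Sox5, Pde4d, Psd3, Nfia, Fry, Akap13 and Plcb4 by -1.49 to -0.75. Without scaling, the differences of Arhgap39 (0.52) and Tle3 (0.64) no longer passed. Centred among genes of like length, those of Nfia (adjusted p = 0.0786) and Akap13 (0.070) no longer did.

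**Figure D3:**
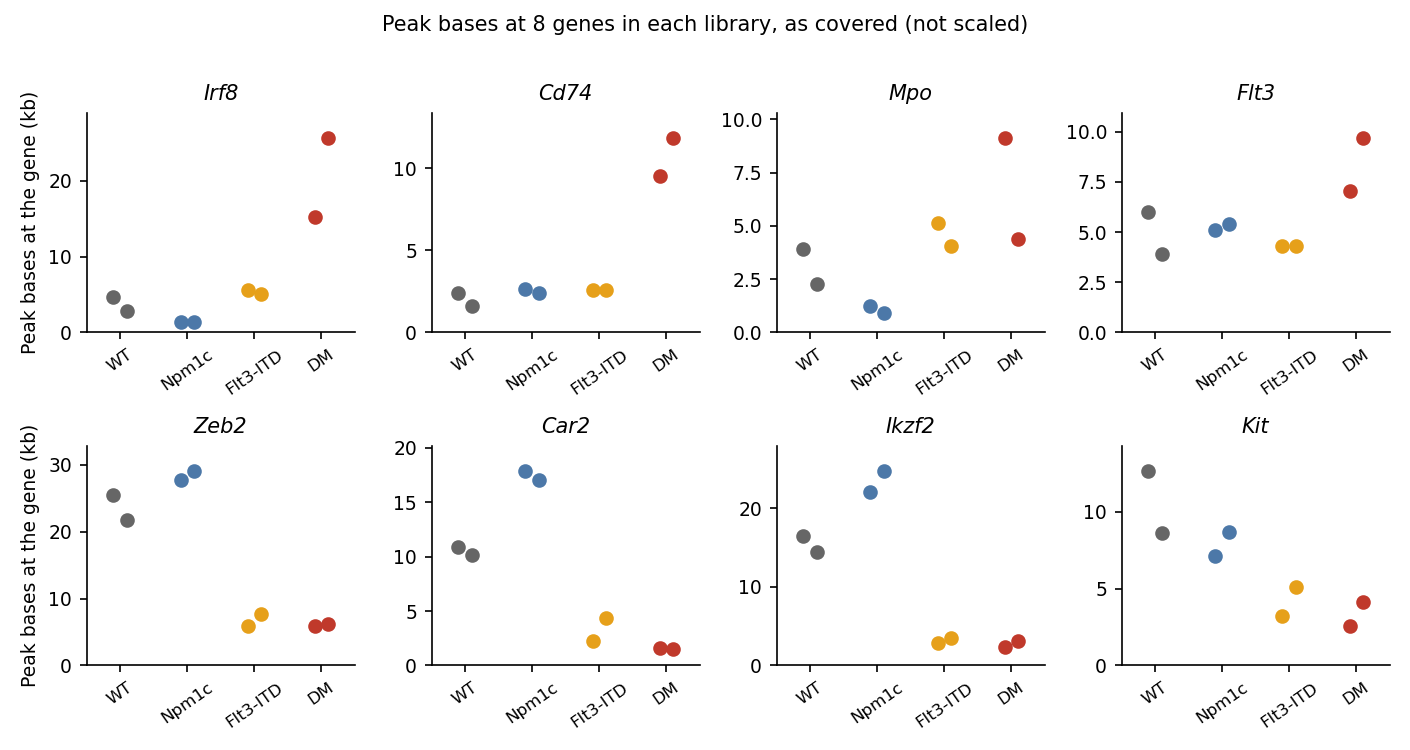
Covered kb at 8 genes in each library, by genotype. Irf8, Cd74 and Flt3 are highest in the 2 DM libraries, while Zeb2, Car2, Ikzf2 and Kit lie lower in the 4 libraries with Flt3-ITD than in the other 4.

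Of the genes with the largest changes or with regions among the only-with and only-without sets, 5 are described next. These 5 were picked for the size of their change, and their sums hold such regions, so the p-values are a description. The cell surface genes Epha2, an ephrin receptor, and Sema7a, a semaphorin, rose by 3.30 and 2.71 (limma adjusted p = 0.0100 and 0.0105). Epha2 held 2.68 and 0.63 kb in WT, none in Npm1c, 2.57 and 2.61 kb in Flt3-ITD and 5.09 and 6.53 kb in DM. WT replicate 1 thus reached the Flt3-ITD libraries. Pdgfb, a growth factor ligand, rose by 2.85 (adjusted p = 0.0032), from at most 1.095 kb to at least 2.03 kb. Cd55b, a complement regulator, held 2.60 to 2.96 kb in the libraries without the allele and was listed at 0 in the 4 with it. All 5 of its regions were only without, so that 0 follows from the rule. Col1a2, a collagen chain of stroma, held 2.47 to 3.72 kb without and was listed at 0 with the allele, with 6 of its 8 regions only without.

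Flt3 is the gene that carries the duplication. It held 6.01 and 3.92 kb in WT, 5.08 and 5.40 kb in Npm1c, 4.31 and 4.31 kb in Flt3-ITD and 7.05 and 9.67 kb in DM. Only the DM libraries lay above the rest. Relative to the total, Flt3 rose by 0.77 ± 0.15 (limma adjusted p = 0.0071), a call that was lost without scaling (0.24, adjusted p = 0.412). One only-with region inside the gene, chr5:147351530-147352314, covered 272 and 343 bases in Flt3-ITD and 690 and 785 bases in DM. The region at its promoter, chr5:147399369-147401254, covered 1004 and 784 bases in WT, 652 and 642 bases in Npm1c, 741 and 753 bases in Flt3-ITD and 1627 and 1886 bases in DM. Npm1, the gene that carries the partner mutation, held 2.22 to 2.41 kb without and 1.45 to 1.52 kb with the allele, a change of -0.10 relative to the total (adjusted p = 0.551) of -0.60 without scaling (adjusted p = 0.0037) and of -0.49 when centred by chromosome (adjusted p = 0.0413). Mx1, whose promoter drives the Cre, held 0.321 and 0 kb in WT, 1.22 and 0.805 kb in Npm1c, 0.363 and 0.332 kb in Flt3-ITD and 0.954 and 1.43 kb in DM. It passed after scaling (0.85, adjusted p = 0.0445), not without scaling (0.48, adjusted p = 0.236), not among genes of like length (0.75, adjusted p = 0.0727), and not without WT replicate 2, Npm1c replicate 2 or any 1 library with the allele (adjusted p = 0.05565 to 0.112).

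Counts by list, here and below, stand beside 22.7% of all genes up and 24.4% down, or 2.08% and 49.1% without scaling. Among the receptors of the FLT3 class and their ligands, 3 of 9 tested genes rose and 2 fell, and without scaling none rose and 2 fell. Those that fell were Kit, the stem cell factor receptor (12.6 and 8.59 kb in WT, 7.12 and 8.67 kb in Npm1c, 3.21 and 5.11 kb in Flt3-ITD, 2.56 and 4.09 kb in DM; -0.74), and the PDGF receptor gene Pdgfra (-0.53, adjusted p = 0.0239). Pdgfra turned to 0.28 when regions beyond 10 kb were left out and lost its call without Npm1c replicate 2 (-0.52, adjusted p = 0.0661), Flt3-ITD replicate 1 (-0.49, 0.0582), Flt3-ITD replicate 2 (-0.49, 0.0525) or DM replicate 1 (-0.48, 0.0721), and in lists of equal length (-0.45, 0.0710). Csf1r, the macrophage colony-stimulating factor receptor, rose by 1.14 with scaling, the third with Flt3 and Pdgfrb. Without either Npm1c or either DM library, 2 genes rose, and without any 1 of the 4 libraries named for Pdgfra, 1 fell.

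Of the genes of the JAK-STAT pathway and its targets, 18 of 29 had more covered bases relative to the total and 2 fewer (median 0.51), against 22.7% and 24.4% of all genes. Centred by chromosome, the counts were 12 and 4 (median 0.22). Socs2 and Socs3, feedback inhibitors induced by STAT5 and STAT3, rose by 1.34 and 1.52, and Pim1, a STAT5 target kinase, by 0.96. Socs3 held 7.14 and 5.09 kb in WT, 2.39 and 2.06 kb in Npm1c, 6.75 and 6.52 kb in Flt3-ITD and 8.46 and 8.41 kb in DM, so the WT and Flt3-ITD libraries overlapped before scaling. The cyclin Ccnd1 rose by 1.27. Those that fell were the kinase gene Jak1, with 13.8 to 19.7 kb without and 5.60 to 7.75 kb with the allele (-0.81), and Socs6 (-0.83), whose call was lost without Npm1c replicate 2 (-0.75, adjusted p = 0.0526) and in lists of equal length (-0.62, adjusted p = 0.0894) or with regions within 10 kb only (-0.72, adjusted p = 0.0596). Without scaling only 1 gene of the list rose, Socs3, and 8 fell. Stat5b itself changed by 0.51 (adjusted p = 0.0111) with scaling, by -0.03 (adjusted p = 0.930) without it and by 0.12 (adjusted p = 0.360) when centred by chromosome.

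The AP-1 and immediate early genes gave 13 up and 1 down of 24 (median 0.45), 1 up and 7 down without scaling, and 9 up and 3 down of 20 with regions within 10 kb only. Maff, a small MAF factor, rose by 1.10 under scaling and by 0.58 without it (adjusted p = 0.0487), while Fosl2 (1.0) and Nr4a1 (1.14) passed only with scaling. Bach1, which encodes a repressor, was the 1 gene that fell (-0.52). Its call was lost without Npm1c replicate 1 or 2 (-0.50 and -0.42) or DM replicate 1 or 2 (-0.48 and -0.44), with adjusted p of 0.0643 to 0.0716. Bach2, of the same list, rose by 0.39 with scaling (limma adjusted p = 0.0323) and did not pass without it (-0.16). The RAS-MAPK list split 13 up and 6 down of 35, and the PI3K-AKT-FOXO list 11 up and 5 down of 25. Of all genes, 22.7% were up and 24.4% down. Within the latter, the mTORC1 scaffold Rptor, with 2 only-with regions, rose by 1.45 with scaling and not without it (adjusted p = 0.0764). Without scaling neither list had a gene that rose, and 15 and 9 fell. Without DM replicate 1, 8 RAS-MAPK genes rose and 7 PI3K genes, and without Npm1c replicate 2, 5 PI3K genes. The PI3K genes that fell were 1 or 2 without WT replicate 2, either Npm1c library or either DM library, and 3 without Flt3-ITD replicate 1. They were 1 with the replicate block or among genes of like length, 2 in equal lists and 3 when centred by chromosome.

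**Figure D4:**
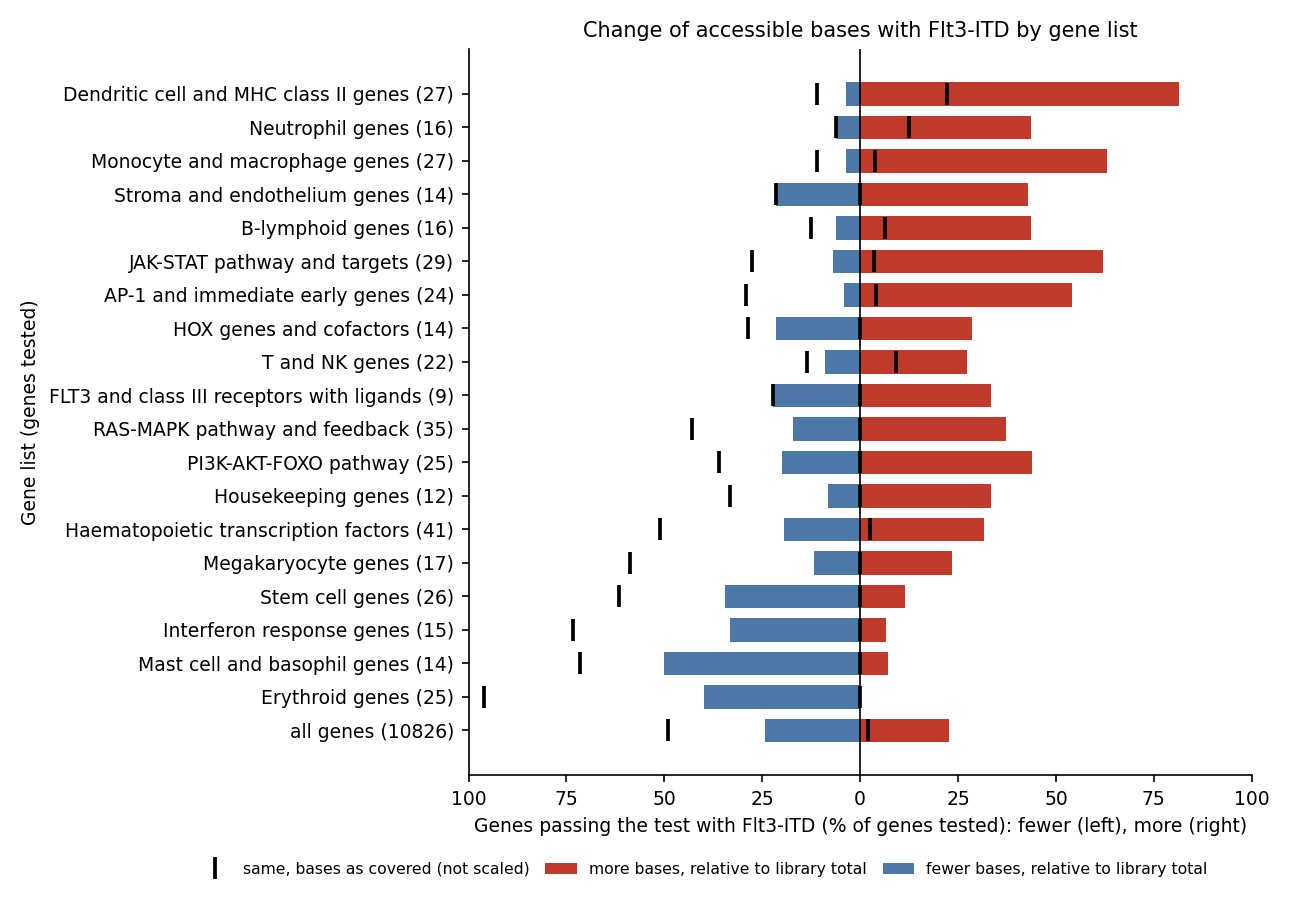
Share of the tested genes of each list with more (right) and fewer (left) covered bases with Flt3-ITD at a limma adjusted p under 0.05, after scaling, with ticks for the shares without scaling. Dendritic, monocyte and JAK-STAT genes extend furthest to the right, erythroid and mast cell genes to the left.

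Of the 19 lists, that of dendritic cell and MHC class II genes had the largest share of genes up, with 22 of 27 up and 1 down (median 1.01), 22 of 26 up in lists of equal length, and 6 up and 3 down without scaling. Cd74, the invariant chain of MHC class II, held 2.42 and 1.60 kb in WT, 2.65 and 2.42 kb in Npm1c, 2.60 and 2.56 kb in Flt3-ITD and 9.51 and 11.8 kb in DM. It rose by 1.69 ± 0.27, and before scaling only the DM libraries stood above those without the allele. H2-Aa and H2-Ab1, the chains of the class II molecule, rose by 1.60 and 1.33, and these 3 genes also passed without scaling (1.17, 1.11 and 0.82). The exception was Tcf4, the factor of plasmacytoid dendritic cells, which fell by 0.68, with 10.99 to 18.25 kb without and 3.92 to 11.5 kb with the allele, and which did not pass among genes of like length (-0.29, adjusted p = 0.0608). The 30 genes together covered 71.6 to 172 kb with and 74.9 to 113 kb without the allele, or 92.0 to 184.5 kb and 68.4 to 82.0 kb after scaling, and none was at 0 in all libraries of a side. Cd74, H2-Aa and H2-Ab1 were chosen after their values were seen.

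Of the monocyte and macrophage genes, 17 of 27 rose and 1 fell (median 0.75), and without scaling 1 rose and 3 fell. Besides Irf8, these included the C/EBP factor gene Cebpb, with 8.73 to 13.8 kb without and 12.6 to 16.2 kb with the allele (1.02), and the Fc receptor gene Fcgr1 (1.21). F13a1, a coagulation factor subunit of monocytes, rose by 1.49, and Spi1, which encodes PU.1, by 0.90. Cebpb, Fcgr1, F13a1, Spi1 and Csf1r lost their calls without scaling. Zeb2 was the list's 1 gene that fell. In the neutrophil list, 7 of 16 rose and 1 fell, and without scaling 2 rose and 1 fell. Mpo, the myeloperoxidase of granulocyte precursors, held 3.94 and 2.25 kb in WT, 1.23 and 0.93 kb in Npm1c, 5.13 and 4.07 kb in Flt3-ITD and 9.11 and 4.39 kb in DM. It stood higher in every library with the allele, by 1.99 ± 0.39, and passed without scaling too (1.47). Prtn3, a granule protease, and Cebpa rose by 1.16 and 0.94 with scaling and did not pass without it. S100a9, a late neutrophil gene, fell by 0.80, and the late granule genes Camp and Lcn2 covered at most 0.385 and 0.217 kb in any library.

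The cells were depleted of mature lineages, and Kit, Cd34 and Meis1 of progenitors were covered in all 8 libraries. The T-cell receptor component gene Cd3e was listed at 0 in 6 of 8, but lymphoid genes as a whole were not at 0. The 25 B-lymphoid genes summed to 34.0 to 62.5 kb with and 43.4 to 66.5 kb without the allele, and the 29 T and NK genes to 41.3 to 81.4 kb and 39.6 to 84.8 kb, with 2 genes of each list at 0 in all 8. Of the B-lymphoid genes, 7 of 16 rose and 1 fell, and of the T and NK genes, 6 of 22 rose and 2 fell. Of all genes, 22.7% rose and 24.4% fell. Without scaling, 1 B-lymphoid gene rose and 2 fell, and 2 T and NK genes rose and 3 fell. Without either Npm1c or either DM library 3 B-lymphoid genes rose, without WT replicate 2 there were 4, and without DM replicate 1 there were 3 T and NK genes. Pax5, the B-cell identity factor, rose from 0.49 to 0.915 kb to 1.66 to 5.77 kb (2.33 ± 0.28), with 2 only-with regions in the sum. Runx3 rose by 1.39 with scaling and did not pass without it (0.84, adjusted p = 0.0643). The genes of these lists that fell with scaling were Bank1 (B-lymphoid, -0.82) and Cd247 and Klrb1c (T and NK, -0.69 and -0.58). Rag1, a B-lymphoid gene with 1 region and not tested, held 0.837 to 1.05 kb without the allele and was listed at 0 with it. Stroma and endothelium genes split 6 up and 3 down of 14 (0 and 3 without scaling), and their sum was 20.3 to 41.9 kb with and 28.1 to 44.35 kb without the allele. The part of such cells in the changes was not tested.

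Erythroid genes moved the other way, with none of 25 up and 10 down (median -0.61). Without scaling 24 were down, beside 49.1% of all genes. With scaling, the median was -0.08 in Flt3-ITD against WT, with 5 genes down, and -1.22 in DM against Npm1c, with 23 down. Car2, a carbonic anhydrase of red cells, held 10.9 and 10.2 kb in WT, 17.9 and 17.0 kb in Npm1c, 2.29 and 4.34 kb in Flt3-ITD and 1.62 and 1.54 kb in DM. Its fall was 1.96 ± 0.40 on the log2 scale, with 6 only-without regions in the sum. Car1 fell by 2.82, Sox6, a regulator of globin genes, by 1.60, and the beta-globin gene Hbb-bt by 2.90. The 32 listed genes together covered 61.1 to 138 kb with and 186.5 to 208 kb without the allele. After scaling the ranges were 65.5 to 168 kb and 151 to 176 kb and overlapped, with the DM libraries lowest. Of the regions at these genes, 33 of 327 (10.1%) were only without and 3 (0.917%) only with, beside 8.31% and 0.567% of the regions of all genes. Without Npm1c replicate 2 or DM replicate 1, 5 genes passed, and without Npm1c replicate 1 or DM replicate 2, 6 did.

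Mast cell and basophil genes gave 1 up and 7 down of 14 (10 down without scaling, 4 of 11 in equal lists). None rose without Npm1c replicate 2 or DM replicate 1. Cpa3, a mast cell carboxypeptidase, held 0.756 to 2.77 kb without the allele, 0.245 and 0.200 kb in Flt3-ITD and none in DM (-2.32). Ms4a2, the beta chain of the IgE receptor, fell by 1.67. The 22 genes covered 24.9 to 27.3 kb with and 31.8 to 40.9 kb without the allele after scaling, with no overlap. Megakaryocyte genes gave 4 up and 2 down of 17, a share of genes up close to the 22.7% of all genes. They had 2 up without Npm1c replicate 2 or DM replicate 1 and none down without either Npm1c library. Without scaling none rose and 10 fell, and centred by chromosome 1 rose and 4 fell.

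Of the stem cell genes, 9 of 26 fell and 3 rose (16 fell and none rose without scaling, and 6 rose without WT replicate 1), a share of fallen genes of 34.6% beside 24.4% of all genes. The median turned from -0.10 to 0.05 among genes of like length. Meis1, a homeobox gene of stem cells, held 15.2 and 10.9 kb in WT, 13.6 and 17.1 kb in Npm1c, 4.47 and 5.095 kb in Flt3-ITD and 7.40 and 7.61 kb in DM (-0.66 ± 0.10, adjusted p = 0.0039). Every library with the allele lay below every one without it. Hlf fell by 1.14 and Cd34 by 0.78. Tek, the receptor of angiopoietin, held 1.75 to 3.97 kb without the allele and was listed at 0 with it. The HOX genes and cofactors split 4 up and 3 down of 14 (0 and 4 without scaling), with 2 up without Npm1c replicate 2 or DM replicate 1. The haematopoietic transcription factors split 13 up and 8 down of 41 (1 and 21 without scaling), and among those down was Etv6 with 11 only-without regions (-0.53). Interferon response genes gave 1 up and 5 down of 15, with 3 down without WT replicate 2, Npm1c replicate 1 or DM replicate 1 2 down without Npm1c replicate 2, 3 of 13 in equal lists and 11 without scaling. Gbp2, an interferon-induced GTPase, fell by 1.76, from 2.56 to 4.03 kb to 0.345 to 0.657 kb. The housekeeping genes had 4 up and 1 down of 12, none in either direction in equal lists, 4 down without scaling, and none in either direction without Npm1c replicate 2. Centred by chromosome 1 was up and 1 down, and 2 were up among genes of like length, without Npm1c replicate 1 or without either DM library.

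Regions called in all 8 libraries allow the libraries with and without the allele to be compared by width alone. After centring each library on its median, 5337 (20.4%) of the 26169 were wider with Flt3-ITD and 3728 (14.2%) narrower at a limma adjusted p under 0.05. Without centring, 671 (2.56%) were wider and 10320 (39.4%) narrower. Wider regions numbered 3518 without Npm1c replicate 2 and 3339 without DM replicate 1, and narrower ones 2386 and 2268 without Npm1c replicates 1 and 2 and 2391 and 2389 without DM replicates 1 and 2. In 3992 of the wider and 2580 of the narrower, the 4 widths of each side did not overlap. A region 1268 bp from Pim1, chr17:29496118-29498640, covered 616, 451, 294 and 350 bases in the libraries without the allele, 937 and 588 bases in Flt3-ITD and 2346 and 2427 bases in DM, a change of 1.99 ± 0.38 (adjusted p = 0.0056). Other widened regions lay near Enpp6 (2.06) and in Zfp469 (2.02) and Fgd2, at whose promoter the change was 1.88. At the promoter of Mpped2, chr2:106692902-106695562, the libraries without the allele covered 2334 to 2642 bases and those with it 325 to 478 (-2.36 ± 0.15). Regions in Plscr2 (-2.39), Slc16a7 (-2.25) and Shc4 (-2.20) had narrowed as much. The narrowed regions were nearer to genes' starts, with 46.4% of them overlapping a promoter window and a median distance of 2246 bp to a start, than the widened ones (17.5% and 11080 bp). For all regions called in all 8, the values were 35.9% and 5385 bp. The narrowed regions were also longer, with a median of 1496 bp against 727 bp, and the part of length was not tested.

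The 2 Npm1 backgrounds use separate libraries and share no control, so each gives its own reading of the allele. Against WT, Flt3-ITD gained 881 regions (0.852%; called in 2 of 2 against 0 of 2) and lost 16751 (16.2%). Against Npm1c, DM gained 12992 (12.6%) and lost 19986 (19.3%). The 585 only-with regions are 66.4% of the first gains and 4.503% of the second, and the 8665 only-without regions 51.7% and 43.4% of the losses. In the opposite direction, 6 regions were gained in the WT background and lost in the Npm1c background, and 216 the reverse. For covered bases per gene, 1018 (9.4%) were up and 1634 (15.1%) down against WT, and 3502 (32.3%) and 3219 (29.7%) against Npm1c. In both backgrounds 2138 passed, of which 2043 had the same direction. Across genes, which are not independent replicates, the changes correlated with Pearson's r = 0.593 and a Spearman coefficient of 0.621 (n = 10826), and 73.5% had the same sign. For widths of shared regions, 1417 (5.41%) were wider and 1111 (4.25%) narrower against WT, and 5377 (20.5%) and 6350 (24.3%) against Npm1c, with r = 0.634, a Spearman coefficient of 0.625 and 68.7% of the same sign over 26169 regions.

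**Figure D5:**
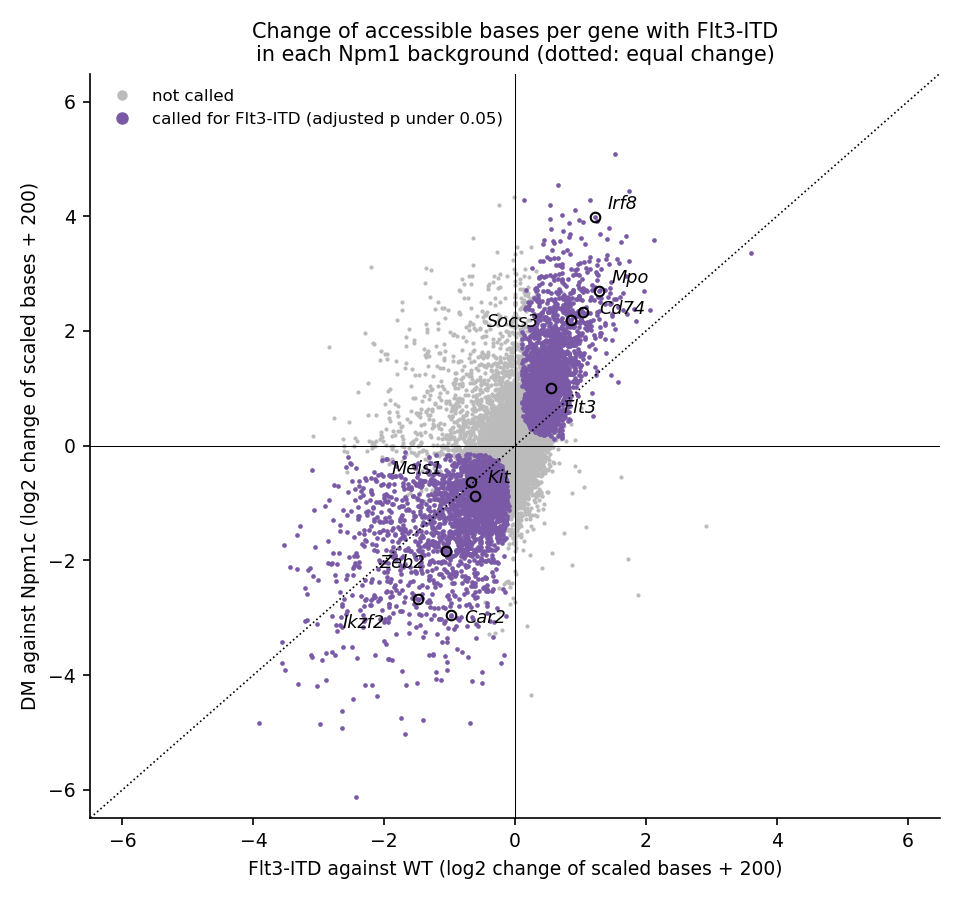
Change of scaled covered bases per gene (log2) in Flt3-ITD against WT (x axis) and in DM against Npm1c (y axis), with the genes that passed in the joint test coloured and the line of equal change dotted. Irf8 lies above the line and Car2 and Ikzf2 below it.

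The changes were often larger beside Npm1c. Irf8 rose by 1.23 ± 0.24 against WT and by 3.98 ± 0.24 against Npm1c (SE; interaction 2.76, limma adjusted p = 0.0051). Its Npm1c libraries lay below its WT libraries, and its DM libraries above all others. Srcin1 changed by 1.12 and 3.21, Runx3 by 0.75 and 2.02, Cd74 by 1.03 and 2.34 and Socs3 by 0.85 and 2.19. Downward, Car2 changed by -0.97 and -2.95 and Ikzf2 by -1.49 and -2.68. Flt3 (0.54 and 1.0; interaction adjusted p = 0.180), Kit (-0.61 and -0.87; 0.519), Meis1 (-0.68 and -0.64; 0.882) and St6galnac3 (-1.24 and -1.14; 0.735) gave no call for a difference. By list, 27 dendritic genes had 8 up and 1 down against WT and 23 up and 2 down against Npm1c. The 27 monocyte genes had 10 and 1 against 19 and 2, and the 16 neutrophil genes 0 and 1 against 10 and 1. Of 25 erythroid genes, 5 were down against WT and 23 against Npm1c. Over all genes the calls grew too, from 9.4% up and 15.1% down against WT to 32.3% and 29.7% against Npm1c. These list counts were not tested against each other, and the test per gene found 1661 (15.3%) with a more positive and 1105 (10.2%) with a more negative change beside Npm1c, or 1358 (12.5%) and 185 (1.71%) without scaling. Against 2766 in all, 1180 were called without WT replicate 1, 1152 and 1322 without Npm1c replicates 1 and 2, and 1239 without DM replicate 2. For widths, 670 regions (2.56%) changed more positively and 1876 (7.17%) more negatively beside Npm1c. That split turned with the normalisation, to 507 (1.94%) and 200 (0.764%) without centring and 665 (2.54%) and 842 (3.22%) with quantile normalisation. Against 2546 in all, 803 were called without WT replicate 1, 931 and 1161 without Npm1c replicates 1 and 2, 898 without Flt3-ITD replicate 2, and 1445 and 1500 without DM replicates 1 and 2.

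Where the regions lie differed between the sets. Of the only-with regions 16 (2.78%) and of the only-without regions 172 (2.06%) overlapped the window from 250 bases before to 50 after a start. The share was 11.7% of all regions and 35.9% of those called in all 8. Of the 11729 regions at such a window, 9125 were called in all 8. Regions outside that set thus also lay mostly away from promoters, and a low share is not particular to the only-with and only-without regions. The median distance to a start was 15136 bp for only-with, 20285 bp for only-without and 14022 bp for all regions. By chromosome, only-with regions made up 1.26% of all regions on chromosome 11 and 1.23% on 17, but 0.204% on 3 and 0.0451% on X. Only-without regions ran the other way, with 14.4% on X and 12.5% on 3 against 4.21% on 11 and 4.09% on 19. Promoter windows also differed by base composition. In the quartile of region-covered windows with the least GC (26.3% to 54.3%), 3.38% were overlapped by an only-without region and 0.151% by an only-with region. In the quartile with the most, these shares were 0.214% and 0.0534%, so that of the only-without regions was lower. Only 17 windows in all lay under an only-with region, too few to compare their shares between quartiles. Each library called fewer windows of the first quartile (76.25% to 93.3%) than of the last (89.5% to 99.0%). Genes of the shortest quartile by length had a median change of 0.15 and those of the longest -0.17. The part of base composition and gene length in the calls was not tested, except that centring by chromosome or among genes of like length left 2379 or 2519 genes up and 2408 or 2485 down.

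Motif letters were counted on both strands in the 300-base promoter windows of RefSeq. The 14 patterns searched were TTCNNNGAA for STAT factors, AGATAA for GATA factors, TGTGGT for RUNX factors, TGANTCA for AP-1, CAGCTG as an E-box, GGGCGG for SP and KLF factors, CCAAT for NF-Y and TGACAG for MEIS factors, with those of PU.1, other ETS factors, C/EBP, IRF, ETS-IRF pairs and CTCF. Matches of different patterns can overlap. Of 188 windows under an only-without region, 39 (20.7%) held AGATAA, compared with 6.75% of the 15318 windows under any region and 11.2% of all 32619. The STAT pattern was in 14.4% of them, 6.74% of those under any region and 8.34% of all. GGGCGG was in 30.3%, 62.1% and 35.9%. Of 17 windows under an only-with region, 7 held CAGCTG, 1 the STAT pattern and none AGATAA, numbers too small to set against the shares of all windows (16.4%, 8.34% and 11.2%). The only-without windows had a median GC of 49.0%, compared with 61.0% for windows under any region, and its part in these shares was not tested.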

How the data were processed

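Chromatin accessibility was profiled by ATAC-seq in 8 libraries, 2 of each of 4 genotypes, and neutrophil samples of the series were not analysed here. Per the submitters' processing notes, the tools include Bowtie2 and MACS2 and the build is mm10, while versions, thresholds, read depth and duplicate handling are not given in the sources used here. Each deposited file gives peak positions (chromosome, start and end) that the authors called per library, with no score or count. Deeper libraries can give more and wider peaks, so calls and widths may move with depth.

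All peaks on chromosomes 1 to 19 and X were joined into regions (overlap of 1 bp or more) with Python 3.11.15 (pandas 2.3.3, numpy 2.4.6, scipy 1.17.1). Covered bases were taken per region and library, and per gene after assigning 94.8% of regions to 21634 protein-coding or listed genes of the RefSeq table of GRCm38.p6. Log2 covered bases of regions called in all 8 libraries (centred on each library's median) and log2(scaled covered bases per gene + 200) were fitted with limma 3.58.1 (R 4.3.3), with terms for Flt3-ITD and Npm1c and Benjamini-Hochberg adjustment over all regions or genes. An adjusted p under 0.05 was called. For library measures, exact permutation tests (two-sided) were used. The fits were tested on simulated data first.

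The members, the 19 gene lists (481 of 483 genes found) and the rules were chosen with earlier results of these data known. Genes were named by rule: Flt3, Npm1 and Mx1, the 10 genes with the most only-with or only-without regions, the 5 such regions highest in mean width percentile, from each list the 4 genes or fewer with the most in a direction, the 10 shared regions and 10 genes with the largest change in each direction, and the 3 highest in that percentile at promoters (chromosome 18 left out). The text names some of these, and a few items are not reported here. Cd74, H2-Aa, H2-Ab1, Csf1r, Pdgfrb, Spi1, Socs2, Socs3, Stat5b, Prtn3, Cebpa, S100a9, Camp, Lcn2, Cd3e, Cd34, Hlf, Hbb-bt, Cpa3 and Ms4a2 lie outside the rule and were chosen after their values were seen. Alternatives covered merging, equal list lengths, minimum width, scaling, centring, pseudocount, gene distance, a replicate block and leaving out each library. Centring genes by chromosome or length, and the alternatives for the difference between Npm1 backgrounds per gene, were added after seeing the data. Replicate numbers do not pair the libraries: deviations of same-numbered libraries correlated at -0.16 to 0.13.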

Additional observations from a re-analysis of the deposited data

Results flagged for a closer look

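The change with Flt3-ITD differed between the WT and the Npm1c background by limma's interaction test for 1661 genes with a more positive and 1105 with a more negative change beside Npm1c. For widths of regions called in all 8 libraries the counts were 670 and 1876. An interaction here is the log2 change in DM against Npm1c minus that in Flt3-ITD against WT, so a low level in Npm1c alone also adds to it. Irf8 had 2.76 and Srcin1 2.09. Epha2 (3.56) and Sema7a (3.14) were listed at 0 in both Npm1c libraries, so their values depend on the 200 bases added.

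Some further genes named in the report had positive interactions. Those given here are not the full set: genes named for a single region, such as Zfp469 (1.62) and Mpped2 (-1.47), also passed and are not counted below. Among receptors, adaptors and signalling genes these were Grm4 (1.48), Baiap2 (1.3), Xxylt1 (0.891), Rptor (1.5), Socs2 (1.43), Socs3 (1.34) and Csf1r (1.04). Among transcription regulators they were Runx3 (1.26), Pax5 (1.25), Fosl2 (0.896), Nr4a1 (0.896) and Tle3 (0.837). The class II genes Cd74, H2-Aa and H2-Ab1 had 1.3, 1.2 and 0.852.

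Negative interactions were found for the erythroid genes Car1 (-2.2), Car2 (-1.98) and Sox6 (-1.36). The transcription factor genes Ikzf2 (-1.19), Zeb2 (-0.79) and Bach1 (-0.595) followed, with Plcb4 (-0.74), Jak1 (-0.728), Socs6 (-0.891) and Cd34 (-0.89). Without scaling to the covered total, 16 of the 19 positive and 1 of the 10 negative interactions counted here were still called (the latter Car2). All 29 kept their sign.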

How the results depend on the processing

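The labels do not say whether replicate numbers pair the libraries. With the replicate block, 2117 genes had more and 2286 fewer covered bases, and 4750 regions were wider and 3270 narrower. No named gene or region lost its call with that block. With lists of equal length, 2895 regions were only with and 2822 only without Flt3-ITD. With peaks of at least 300 bp, 375 were only with, and the difference in peaks per library was -13396 (exact permutation p = 0.0286). Called in 3 of 4 against none, 1329 were only with and 13000 only without. Not centred, 671 regions were wider and 10320 narrower, and with 1 peak per library 2935 were wider. Not scaled, 225 genes had more and 5314 fewer covered bases. For the difference between Npm1 backgrounds, 707 regions were called when not centred, 1507 after quantile normalisation and 1057 with 1 peak per library, against 2546, and 1543 genes when not scaled, against 2766. Stat5b turned to -0.025 when not scaled and Pdgfra to 0.28 with regions within 10 kb of a gene only. The cause was not tested.

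Leaving out each library in turn, the difference in peaks ran from -18676 (without DM replicate 2) to -11543 and that in median width from -169 to -104.7 bases. The latter kept its exact permutation p of 0.0286 only without WT replicate 2 or either Npm1c library, though the sides did not overlap in any case. Only-with regions ran from 592 to 2510 and only-without regions from 8745 to 12094. Wider regions ran from 3339 (without DM replicate 1) to 5777 and narrower ones from 2268 (without Npm1c replicate 2) to 4576. Genes with more covered bases ran from 1424 to 2768 and with fewer from 1699 to 2706, both lowest without Npm1c replicate 2. The difference between backgrounds held for 803 (without WT replicate 1) to 3392 regions and 1152 (without Npm1c replicate 1) to 2894 genes. The sources used here give no read depth, which limits every call of an absent peak.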
